A study of Mus musculus and Homo sapiens with 19 samples.

Results

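The 32 genes described here encode the route from glucose uptake to lactate and to the entry of pyruvate into the mitochondrion. They were chosen by symbol: glucose transporters, hexokinases, phosphofructokinases, the PFKFB enzymes, the enzymes from aldolase to pyruvate kinase, lactate dehydrogenases, monocarboxylate transporters, the pyruvate dehydrogenase step and the gluconeogenic enzyme fructose-1,6-bisphosphatase. All 32 were found in each kind of table, among 24421 genes in the 4T1 knockdown table, 57992 in the MDA-MB-231 table and 55573 in the co-culture tables. Members absent from a test had too few counts.

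The series compared cultured cells by RNA sequencing in 19 libraries. In the knockdown, 4T1 mouse mammary carcinoma cells carried a scrambled hairpin (shSCR, n = 3) or a hairpin against Phgdh (shPHGDH, n = 3), each delivered in the pLKO vector. In a second experiment, MDA-MB-231 human breast cancer cells were controls (n = 3) or carried pLHCX with PHGDH cDNA according to their labels (n = 3). In the last, 4T1 and EMT6.5 mouse breast cancer cells and the mouse endothelial line Bend3 were grown alone or together, the tumour and endothelial cells of a mixed culture being separated by flow sorting, with 1 library per condition (7 in all). The labels name no clones and no second hairpin, and they do not say that replicates came from separate cultures, so the p-values speak only of how far libraries of a group varied. Gene counts per library ran from 12.7 to 20.5 M in the knockdown, from 19.5 to 23.8 M in MDA-MB-231 and from 4.27 to 7.67 M in the co-culture set. In the co-culture set 60.2% to 66.0% of all entries named no gene, mostly because they aligned to several places, against 14.3% to 15.2% in MDA-MB-231. Values are given as CPM, which are gene counts scaled to 1000000 per library after TMM adjustment. In bulk RNA a lower value cannot tell less RNA per cell from fewer cells that make it.

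Glycolysis splits glucose into pyruvate and yields ATP and NADH. Its committed step is catalysed by phosphofructokinase, whose activity is raised by fructose 2,6-bisphosphate, the product that PFKFB enzymes make and break down. PHGDH, the enzyme targeted in this study, draws off the intermediate 3-phosphoglycerate from the middle of the pathway for serine synthesis. At the end of the pathway, pyruvate is reduced to lactate by lactate dehydrogenase or enters the mitochondrion, where pyruvate dehydrogenase kinases (PDKs) switch off its oxidation. Tumour cells are known for sending much of their pyruvate to lactate.

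Several of these genes have near-identical processed copies, which limits what 50-base reads can assign to them. Of all 50-base windows in the longest coding transcript (GENCODE vM21, GRCm38), 82.5% occurred in other genes too for Gapdh, 72.2% for Eno1, 68.0% for Pgk1 and 41.5% for Pgam1. The other 28 members ranged up to 34.4%, the value of Pkm. The first stretch of identical coding sequence is shown for 3 of them, since it makes plain why a read from there has no single home. All are 5′ to 3′ on the gene's strand.

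Gapdh, also in Gm7336: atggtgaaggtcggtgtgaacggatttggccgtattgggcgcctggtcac
Eno1, also in Eno1b: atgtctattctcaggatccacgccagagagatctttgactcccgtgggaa
Pgk1, also in Pgk1-rs7: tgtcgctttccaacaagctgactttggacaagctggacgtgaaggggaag

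The identical run spans 999 of 999 coding bases between Gapdh and Gm7336, 1250 of 1251 between Pgk1 and Pgk1-rs7, and 725 of 1302 between Eno1 and Eno1b. Gapdh, which encodes the enzyme that oxidises glyceraldehyde 3-phosphate, was read at only 5.20 to 6.44 CPM in the knockdown table and 1.12 to 5.75 CPM in co-culture, whereas the human gene stood at 3814 to 6412 CPM in MDA-MB-231. Eno1 had 0 or 1 count per library in the knockdown table, where its copy Eno1b held 488 to 904 counts. Eno1b was not called there (log2 fold change 0.071 ± 0.072 SE, adjusted p = 0.41). Pgk1, the first ATP-forming kinase of the pathway, was at 226 to 256 CPM in the knockdown table and 2.26 to 12.4 CPM in co-culture, although both sets include 4T1 cells. Levels of these 4 genes are therefore not compared between tables, and their changes within a table rest on the reads that were assigned. Sharing among human genes was not analysed here.

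In the shSCR libraries, per kilobase of transcript, the most abundant members were Ldha at 801 ± 10.4 CPM per kb (SD, n = 3), Pkm at 671 ± 14.4, Aldoa at 518 ± 8.58 and Tpi1 at 274 ± 0.989. These 4 encode lactate dehydrogenase A, pyruvate kinase M, aldolase A and triosephosphate isomerase, and each stood beyond the spread of the next. Pgk1 at 127 ± 3.20 CPM per kb and Gpi1 at 124 ± 1.29 lay within their spread of each other, as did Slc2a1 at 24.6 ± 0.890 and Hk2 at 24.0 ± 0.430. The scarcest expressed isoforms included Eno2 at 0.200 ± 0.107 CPM per kb and Slc16a3, a lactate exporter, at 0.0772 ± 0.00442. Fbp1, the gluconeogenic enzyme, had 0 counts in all 6 knockdown libraries. This order rests on assigned reads. The places of Gapdh (3.95 ± 0.409 CPM per kb), Eno1, Pgk1 and Pgam1 in it are uncertain, since copies share many of their windows. The order also differed in the 4T1 monoculture library of the co-culture set, with Aldoa at 435, Pkm at 427 and Ldha at 177 CPM per kb.

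The knockdown comparison asks how 4T1 cells with less Phgdh differ from cells with the scrambled hairpin. Phgdh itself read 167, 173 and 163 CPM in shSCR and 20.7, 20.21 and 21.7 CPM in shPHGDH libraries, a log2 fold change of -2.999 ± 0.043 (SE), so the target was lower in each library labelled shPHGDH. Of the 26 members with enough counts, 14 rose and 3 fell at an adjusted p under 0.05, and 9 were not called. Of 11568 genes in all, 59.7% were called, 30.1% higher and 29.6% lower, so the share of members called, 17 of 26, is near the background. The median member stood at 0.17 on the log2 scale, against -0.01 for all genes tested. Scaled by library totals alone, 12 members were called higher and 5 lower, where all genes gave 3027 higher and 4023 lower in place of 3484 and 3421. Not tested were Slc2a3, Eno1, Slc16a3, Pdk2, Pdk4 and Fbp1.

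**Figure D1:**
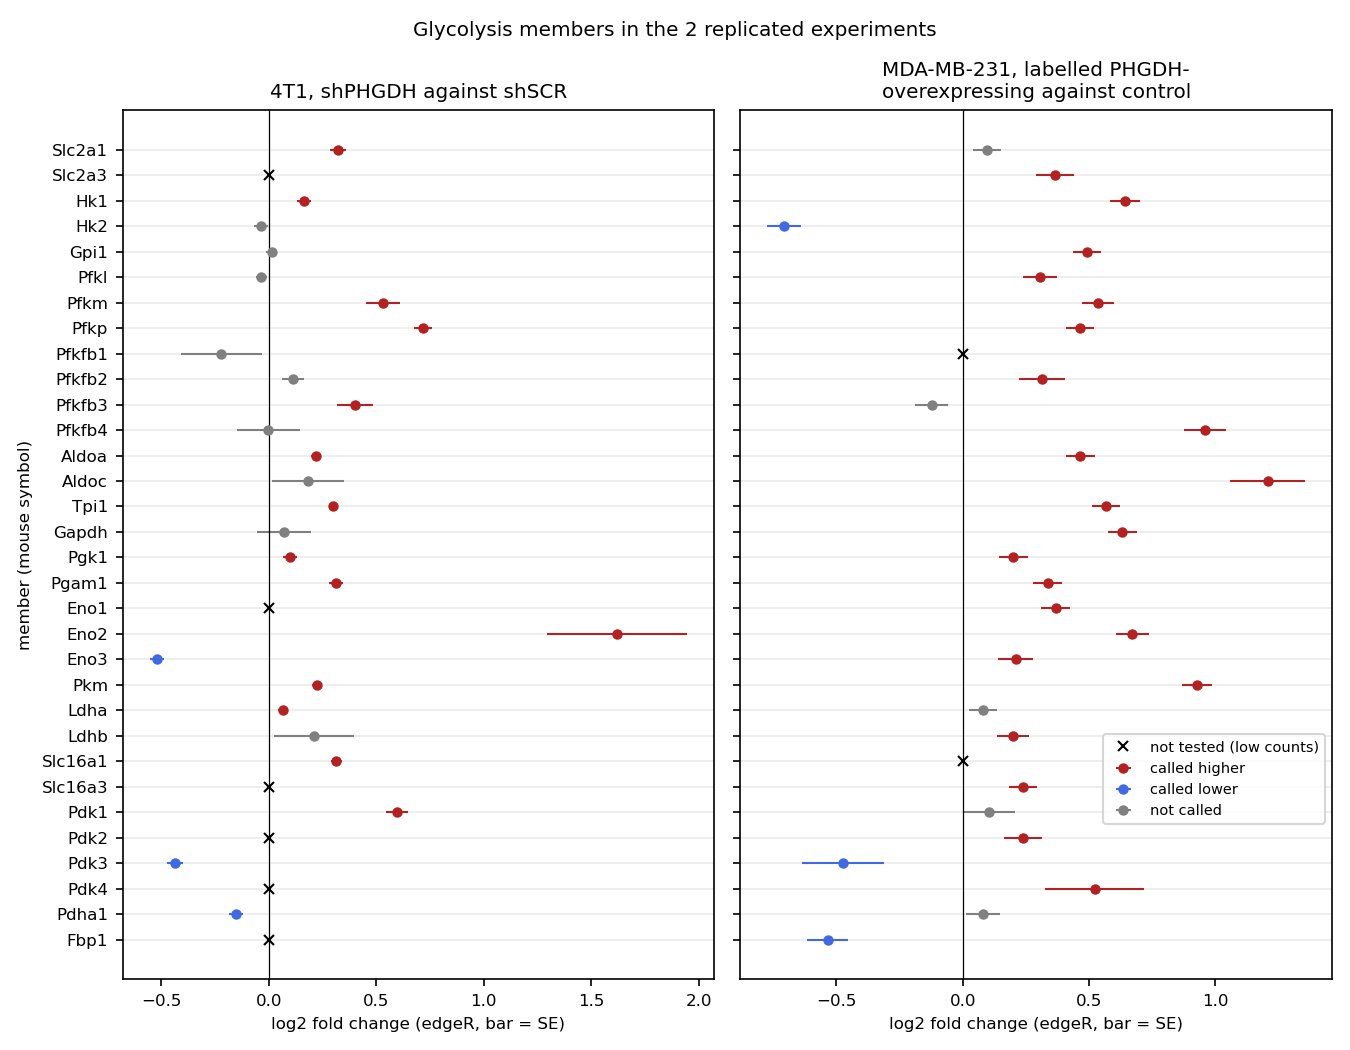
Log2 fold changes (edgeR, bars are SE) of the 32 members in 4T1 shPHGDH against shSCR (left) and in MDA-MB-231 labelled PHGDH-overexpressing against control (right). Red and blue points were called higher and lower, grey points were not called and crosses at 0 were not tested; 14 members lie in red on the left and 22 on the right.

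Whole chromosomes shifted between the arms of the knockdown, which bears on single genes. The median log2 fold change per chromosome ran from -0.25 on chromosome 8 to 0.51 on chromosome 14. With the chromosome's median taken off each gene, the median member stood at 0.17, with 20 of 26 above 0. With the median of the 50 nearest tested genes taken off, it stood at 0.13, with 19 of 26 above 0. For each gene named below with a change in the knockdown, the median of its 50 neighbours is given where it exceeds 0.15 in size. Without the 4 members that share most reads with copies, 12 rose, 3 fell and 8 were not called, with a median of 0.18.

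Slc2a1, which encodes the main glucose transporter of dividing cells, read 78.9, 83.4 and 78.0 CPM in shSCR and 99.3, 97.7 and 102 CPM in shPHGDH libraries. All shPHGDH libraries lay above all shSCR libraries. The gene rose by 0.32 ± 0.036 (log2 fold change ± SE, adjusted p = 1.75e-08), while its 50 neighbours on chromosome 4 had a median of -0.24.

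At the first step, the hexokinases that trap glucose in the cell diverged slightly. Hk2 read 130, 132 and 135 CPM in shSCR and 129, 129 and 129 CPM in shPHGDH libraries, and was not called (-0.038 ± 0.032, adjusted p = 0.32). It was called lower with library totals (-0.078, adjusted p = 0.043). Hk1 rose a little, from a mean of 158 ± 5.30 to 177 ± 2.02 CPM (SD, n = 3; log2 fold change 0.16). Per transcript length, the Hk1 share of hexokinase 1 and 2 RNA went from 60.7% ± 0.381 to 64.0% ± 0.281 (SD, n = 3), with no overlap between the arms. Gpi1, which interconverts glucose and fructose phosphates, was not called at 0.013 ± 0.025 and stood at -0.027 with library totals.

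Among the 3 phosphofructokinases, the liver type Pfkl carried most of the RNA and was not called, while the muscle type Pfkm and the platelet type Pfkp rose. Pfkl read 404, 407 and 385 CPM in shSCR and 393, 388 and 386 CPM in shPHGDH libraries. The arms overlapped, and the gene was not called (-0.035 ± 0.026, adjusted p = 0.26). It was called lower with library totals (-0.075, adjusted p = 0.016) and without shSCR replicate 3 (-0.061, adjusted p = 0.039). Pfkm read 12.04, 12.6 and 12.6 CPM in shSCR and 17.1, 18.9 and 17.9 CPM in shPHGDH libraries. It rose by 0.53 ± 0.078 (adjusted p = 1.47e-06), and its neighbours on chromosome 15 had a median of 0.33. Pfkp read 51.9, 50.7 and 53.7 CPM in shSCR and 84.9, 89.5 and 83.7 CPM in shPHGDH libraries. With the arms far apart, it rose by 0.72 ± 0.041 (adjusted p = 1.48e-14), against a neighbourhood median of 0.18 on chromosome 13. Part of its transcript, 17.1% of the 50-base windows, is shared with the adjacent gene Pitrm1, which was not called (-0.030 ± 0.033).

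The make-up of phosphofructokinase RNA shifted accordingly. Per transcript length, Pfkp made up 10.01%, 9.74% and 10.8% of the 3 isoforms in shSCR and 15.5%, 16.3% and 15.5% in shPHGDH libraries. The difference of 5.63 percentage points lay outside the spread of either arm, and the two-sided exact permutation test gave p = 0.10, the smallest that 3 against 3 libraries allow (0.20 adjusted over 2 tests). Pfkl went from 86.4% ± 0.648 to 79.4% ± 0.657 and Pfkm from 3.48% ± 0.146 to 4.76% ± 0.231 (SD, n = 3).

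**Figure D2:**
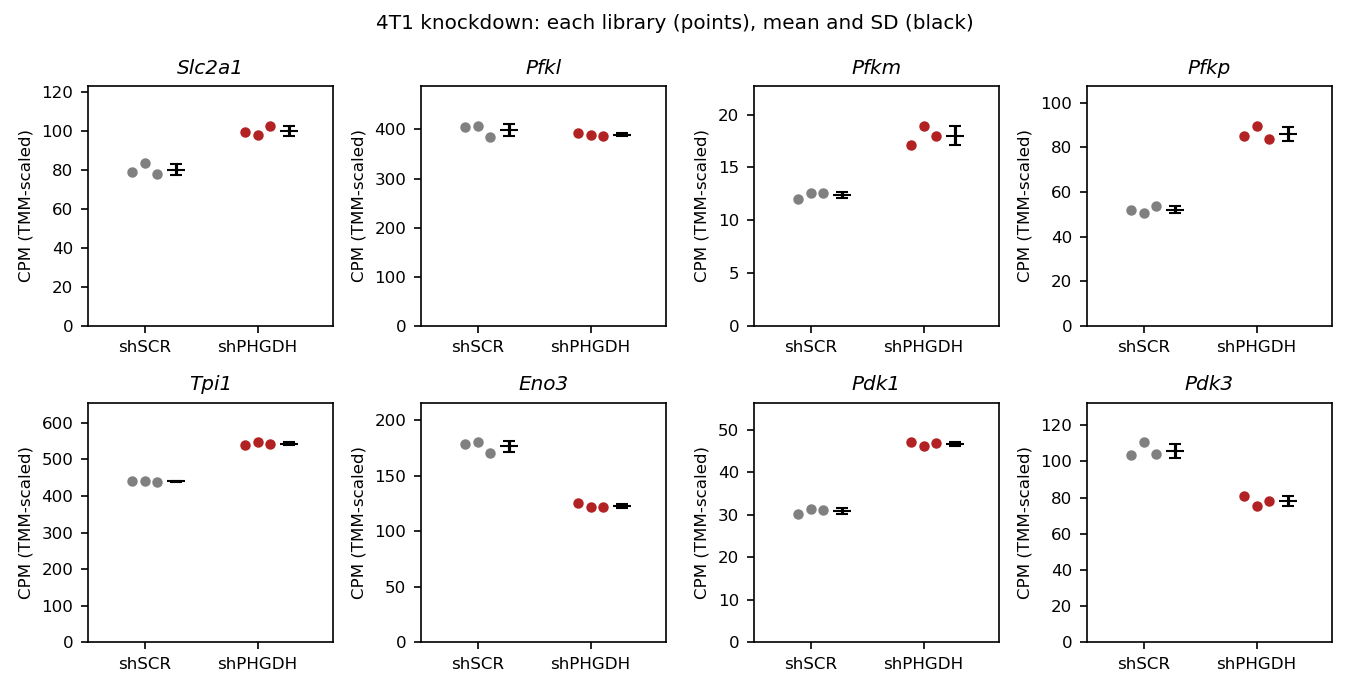
CPM of 8 members in each knockdown library (grey shSCR, red shPHGDH), with the mean and SD of 3 libraries in black and axes that start at 0. Pfkl has means of 399 and 389 CPM, Pfkp goes from about 52.1 to 86.0 CPM, and Eno3 and Pdk3 are lower in every shPHGDH library.

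Of the 4 PFKFB enzymes, Pfkfb3, the isoform with the strongest bias towards making fructose 2,6-bisphosphate, rose. It read 12.6, 13.7 and 15.1 CPM in shSCR and 17.3, 17.6 and 19.7 CPM in shPHGDH libraries, a rise of 0.40 ± 0.083 (adjusted p = 1.47e-04). The arms did not overlap, but the gene's 50 neighbours on chromosome 2 had a median of 0.42, and with it taken off the value was -0.018. Pfkfb2, the most abundant of the family at 41.8 ± 1.53 and 45.2 ± 0.735 CPM, missed the threshold (0.11 ± 0.051, adjusted p = 0.058). Pfkfb1 and Pfkfb4, both under 6 CPM in every library, were not called.

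The enzymes from aldolase to pyruvate kinase gave 6 rises, 1 fall and 2 genes not called among 9 tested. Tpi1, which interconverts the triose phosphates, read 442, 441 and 439 CPM in shSCR and 539, 547 and 543 CPM in shPHGDH libraries. It rose by 0.30 ± 0.022 (adjusted p = 3.55e-12). Pkm, whose product makes pyruvate and ATP, read 1630, 1667 and 1597 CPM in shSCR and 1921, 1878 and 1911 CPM in shPHGDH libraries. It rose by 0.22 ± 0.023 (adjusted p = 4.06e-09), and its neighbours on chromosome 9 had a median of 0.16. Pgam1, a phosphoglycerate mutase, read 109, 111 and 112 CPM in shSCR and 140, 131 and 140 CPM in shPHGDH libraries, a rise of 0.31 ± 0.034 (adjusted p = 8.61e-09). In these 3 genes every shPHGDH library exceeded every shSCR library. Aldoa rose by 0.22 from a mean of 803 CPM, and Pgk1 by 0.098 from 232 CPM. The call of Pgk1 was lost with library totals (0.058, adjusted p = 0.12). Aldoc, the second aldolase, and Gapdh were not called at 0.18 ± 0.17 and 0.071 ± 0.13.

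The enolases, which form phosphoenolpyruvate, moved in both directions. Eno3, the muscle form, read 179, 180 and 170 CPM in shSCR and 125, 122 and 121 CPM in shPHGDH libraries. It fell by 0.52 ± 0.033 on the log2 scale (adjusted p = 1.67e-13), with a wide gap between the arms and a neighbourhood median of -0.043 on chromosome 11. Eno2, the neuronal form, read 0.821, 0.233 and 0.625 CPM in shSCR and 1.90, 1.67 and 1.57 CPM in shPHGDH libraries. Its rise of 1.62 ± 0.33 (adjusted p = 1.14e-04) rests on 28 and 83 counts in all.

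In the lactate branch, Slc16a1, the lactate and pyruvate transporter MCT1, read 339, 344 and 331 CPM in shSCR and 427, 418 and 415 CPM in shPHGDH libraries. It rose by 0.31 ± 0.025 (adjusted p = 2.26e-11), with no overlap. Ldha, which reduces pyruvate to lactate, read 1462, 1467 and 1432 CPM in shSCR and 1557, 1492 and 1521 CPM in shPHGDH libraries. Its rise was small, at 0.067 ± 0.024 (adjusted p = 0.016), and the call was lost without shPHGDH replicate 1 (0.057, adjusted p = 0.055) and with library totals (0.027, adjusted p = 0.32). Ldhb, the isoform that favours pyruvate, was at 2.14 to 2.72 CPM and was not called.

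At the entry of pyruvate into the mitochondrion, the PDKs exchanged weight. Pdk1 read 30.1, 31.4 and 31.2 CPM in shSCR and 47.0, 46.2 and 47.0 CPM in shPHGDH libraries. It rose by 0.60 ± 0.053 (adjusted p = 1.79e-10), against a neighbourhood median of -0.046 on chromosome 2. Pdk3 read 103, 111 and 104 CPM in shSCR and 81.1, 75.2 and 78.2 CPM in shPHGDH libraries. It fell by 0.44 ± 0.037 on the log2 scale (adjusted p = 7.07e-11). The 2 kinases thus moved apart, and per transcript length Pdk1 went from 10.6% ± 0.220 to 19.5% ± 0.491 of PDK RNA while Pdk3 went from 88.9% ± 0.552 to 80.0% ± 0.385 (SD, n = 3). Pdha1, the catalytic subunit that PDKs phosphorylate, fell by 0.15 ± 0.032 on the log2 scale, from 202 ± 4.40 to 182 ± 4.00 CPM (adjusted p = 1.40e-04).

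Around the pathway, 33 of 52 other genes of sugar and pyruvate metabolism were tested. Of these, 9 rose, 11 fell and 13 were not called, with a median of 0.0046. Over all genes tested, 30.1% were called higher and 29.6% lower. The largest rises at 10 CPM or more were Pck2, mitochondrial phosphoenolpyruvate carboxykinase (1.08), Adpgk, an ADP-dependent glucokinase (0.75), Pdhb, a subunit of pyruvate dehydrogenase (0.55), and Tkt, the transketolase of the pentose phosphate pathway (0.46). Pck2, Pdhb and Tkt lie on chromosome 14, where all genes had a median of 0.51 and their neighbours stood at 0.47, 0.46 and 0.51. The neighbours of Adpgk stood at 0.16. The largest falls were Mdh1 (-0.44), Me1 (-0.32), Mpc2 (-0.22) and Bpgm (-0.21), which encode cytosolic malate dehydrogenase, malic enzyme, a subunit of the mitochondrial pyruvate carrier and bisphosphoglycerate mutase. The neighbours of Me1 stood at 0.20. Of 18 tested regulators of glycolysis, 8 rose, 1 fell and 9 were not called. Egln3, a prolyl hydroxylase of the hypoxia response, read 14.8, 16.9 and 16.7 CPM in shSCR and 37.0, 37.5 and 37.8 CPM in shPHGDH libraries. It rose by 1.21 ± 0.066 (adjusted p = 5.59e-15). Akt1 (0.61), Esrra (0.53) and Klf4 (0.45) were the next largest rises, with neighbours at 0.43 for Akt1 and -0.25 for Klf4. Mtor was called lower at -0.22, the same as the median of its whole chromosome 4 (-0.22), and its neighbours stood at -0.20.

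Markers of cell identity also moved in the knockdown, and their part in the results was not tested. The summed level of 12 epithelial markers was 3714 to 3811 CPM in shSCR and 3409 to 3441 CPM in shPHGDH libraries, with 8 markers lower and 3 higher. In shSCR and shPHGDH libraries the 12 endothelial markers summed to 63.4 to 70.1 and 94.2 to 96.4 CPM. Only 2 of them were tested, both higher, and most of the sum was Eng, with means of 62.05 and 88.84 CPM. The 8 leukocyte markers summed to 9.13 to 10.9 and 13.8 to 15.9 CPM, with 3 higher and 1 not called of 4 tested. The 8 fibroblast markers summed to 23.7 to 28.3 and 16.9 to 18.3 CPM. Of 4 tested, 2 were higher, 1 was not called and 1, Col6a1, was lower, with means of 17.78 and 6.175 CPM. No marker of the endothelial, epithelial or leukocyte lists was at 0 in all 6 libraries.

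Promoter sequence was read for the members, because several of these genes are known targets of hypoxia-inducible factors, whose core element is ACGTG or GCGTG. RefSeq promoters (GRCm38.p6) were matched for 31 of the 32 members, all but Slc2a3. For members the entry nearest the GENCODE gene start was taken, and for all genes the first listed entry. The entries compared were therefore not chosen alike. Within the 250 bases before the start site, on both strands, ACGTG or GCGTG occurred in 24 of 31 members (77.4%) and in 43.8% of 17492 protein-coding genes. ACGTG alone was found in 35.5% of members and 17.6% of all genes, and GCGTG in 54.8% and 33.6%. The palindrome CACGTG, which holds ACGTG on each strand and is counted for both, was found in 12.9% of members and 6.64% of all genes. Shown are the promoters of Pfkp and Eno3, the largest rise and fall among members above 10 CPM, of Ldha, with the most matches, and of Pfkfb3, which was lower in both tumour lines after co-culture. Capitals mark ACGTG and also GCGTG, or their reverse complements, read 5′ to 3′ on the gene's strand.

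Pfkp, chr13:6648772-6649021, minus strand: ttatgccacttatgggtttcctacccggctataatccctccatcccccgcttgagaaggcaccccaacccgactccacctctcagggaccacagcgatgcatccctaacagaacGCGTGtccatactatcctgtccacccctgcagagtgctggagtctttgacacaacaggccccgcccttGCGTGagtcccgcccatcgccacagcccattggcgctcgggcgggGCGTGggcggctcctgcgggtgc
Eno3, chr11:70656926-70657175, plus strand: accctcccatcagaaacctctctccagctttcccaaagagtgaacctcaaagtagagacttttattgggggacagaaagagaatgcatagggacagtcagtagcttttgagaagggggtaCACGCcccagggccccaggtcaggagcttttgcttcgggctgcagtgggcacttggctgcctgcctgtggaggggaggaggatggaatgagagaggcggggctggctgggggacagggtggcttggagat
Ldha, chr7:46845554-46845803, plus strand: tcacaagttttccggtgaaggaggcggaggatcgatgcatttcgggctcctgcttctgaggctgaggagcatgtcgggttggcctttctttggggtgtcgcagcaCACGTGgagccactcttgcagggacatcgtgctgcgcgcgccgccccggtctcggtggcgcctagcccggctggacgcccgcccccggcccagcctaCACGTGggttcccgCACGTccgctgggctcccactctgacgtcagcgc
Pfkfb3, chr2:11553930-11554179, minus strand: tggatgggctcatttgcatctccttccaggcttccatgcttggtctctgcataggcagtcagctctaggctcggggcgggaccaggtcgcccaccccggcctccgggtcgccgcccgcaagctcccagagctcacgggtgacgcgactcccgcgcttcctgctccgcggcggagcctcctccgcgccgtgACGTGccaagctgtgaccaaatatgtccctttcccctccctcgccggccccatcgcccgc

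Pfkp holds 3 matches to GCGTG, Eno3 holds 1, Ldha holds 5 matches to ACGTG counting both strands of its 2 CACGTG sites, and Pfkfb3 holds 1. Ldha, with the most matches, rose by 0.067 in the knockdown, and Eno3, with 1, fell. A match describes these letters only and shows no binding.

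The MDA-MB-231 comparison sets libraries labelled PHGDH-overexpressing against controls. PHGDH read 15.5, 15.7 and 18.3 CPM in the controls and 5.99, 4.53 and 5.72 CPM in the libraries labelled PHGDH-overexpressing, a log2 fold change of -1.61 ± 0.12 (SE). The message of the targeted gene thus runs against the label, and every direction in this experiment is that of the libraries labelled PHGDH-overexpressing. Whether labels or columns were exchanged, or reads of the cDNA were not counted under the gene, was not tested, and an exchange would turn every direction given for these cells. Of 30 members tested, 22 were higher, 3 were lower and 5 were not called. Of 17663 genes in all, 44.5% were called, 21.6% higher and 22.9% lower. The median member stood at 0.32, against -0.01 for all genes tested. With library totals, 18 members were called higher and 4 lower, where all genes gave 3053 higher and 4900 lower in place of 3816 and 4048. PFKFB1 and SLC16A1 were not tested, at no more than 0.400 and 0.568 CPM in any library.

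All 10 enzymes from aldolase to pyruvate kinase were called higher. PKM read 2898, 2854 and 2913 CPM in the controls and 5368, 5137 and 5974 CPM in the libraries labelled PHGDH-overexpressing, a rise of 0.93 ± 0.060 (adjusted p = 3.24e-11). GAPDH read 3866, 3814 and 4014 CPM against 5918, 5785 and 6412 CPM, a rise of 0.63 ± 0.057 (adjusted p = 7.51e-09). TPI1 read 739, 714 and 740 CPM against 1060, 1046 and 1140 CPM, a rise of 0.57 ± 0.056 (adjusted p = 3.20e-08). In each of the 10 genes the 2 groups of libraries did not overlap. The share of all genes without overlap is not given here. The groups of SLC2A1, PFKFB3 and LDHA, which were not called, did not overlap either. ALDOA read 769, 755 and 791 CPM against 1055, 1011 and 1130 CPM, a rise of 0.47 ± 0.057. ENO1 read 3198, 3137 and 3260 CPM against 4066, 3933 and 4382 CPM, a rise of 0.37 ± 0.056. PGAM1 read 427, 397 and 429 CPM against 518, 517 and 547 CPM, a rise of 0.34 ± 0.056.

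The minor isoforms of aldolase and enolase rose too. ALDOC, the brain aldolase, read 3.87, 3.00 and 3.06 CPM in the controls and 7.17, 7.64 and 8.28 CPM in the libraries labelled PHGDH-overexpressing, a rise of 1.21 ± 0.15 (adjusted p = 8.33e-07). ENO2 read 86.0, 86.0 and 82.5 CPM against 136, 124 and 145 CPM, a rise of 0.67 ± 0.065 (adjusted p = 2.29e-08). ENO3 read 275, 320 and 344 CPM against 354, 358 and 373 CPM, a rise of 0.21 ± 0.068 (adjusted p = 0.015). The call of ENO3 was lost without control replicate 1 (0.12, adjusted p = 0.12), without labelled PHGDH-overexpressing replicate 3 (0.19, adjusted p = 0.058) and with library totals (0.15, adjusted p = 0.072). PGK1 rose by 0.20 from a mean of 727 CPM, a call that was lost without control replicate 2 (0.17, adjusted p = 0.056).

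**Figure D3:**
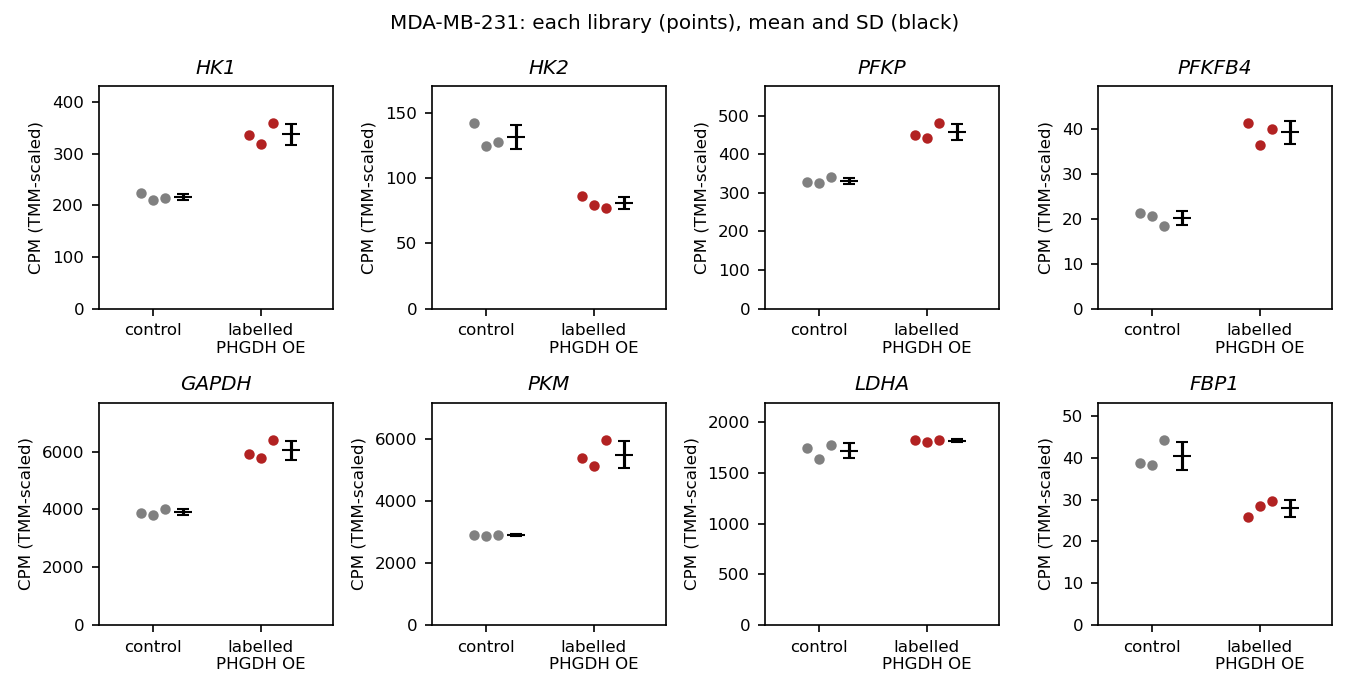
CPM of 8 members in each MDA-MB-231 library (grey control, red labelled PHGDH-overexpressing), with the mean and SD of 3 libraries in black and axes that start at 0. HK1 and HK2 move apart, PKM goes from 2889 to 5493 CPM, and LDHA has means of 1718 and 1816 CPM.

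Upstream, the 2 hexokinases moved in opposite directions. HK1 read 223, 211 and 214 CPM in the controls and 335, 319 and 359 CPM in the libraries labelled PHGDH-overexpressing, a rise of 0.64 ± 0.059 (adjusted p = 1.01e-08). HK2, the form that tumours often induce, read 142, 125 and 128 CPM against 85.8, 79.4 and 76.7 CPM, and fell by 0.71 ± 0.067 on the log2 scale (adjusted p = 1.61e-08). HK1 therefore went from 62.2% ± 0.938 to 80.7% ± 1.497 of HK1 and HK2 counts (SD, n = 3), with no overlap. GPI read 293, 300 and 302 CPM against 419, 402 and 438 CPM, a rise of 0.49 ± 0.056 (adjusted p = 2.58e-07). The transporter SLC2A1 read 459, 482 and 469 CPM against 498, 494 and 516 CPM and was not called (0.097 ± 0.054, adjusted p = 0.16). SLC2A3, a high-affinity glucose transporter, read 36.7, 32.7 and 37.6 CPM against 46.4, 47.2 and 44.3 CPM, a rise of 0.37 ± 0.074 (adjusted p = 3.69e-04).

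All 3 phosphofructokinases rose in MDA-MB-231, where PFKP was the main form by counts. PFKP read 329, 325 and 340 CPM in the controls and 451, 441 and 481 CPM in the libraries labelled PHGDH-overexpressing, a rise of 0.47 ± 0.056 (adjusted p = 6.36e-07). PFKM read 76.0, 74.4 and 70.9 CPM against 110, 103 and 108 CPM, a rise of 0.53 ± 0.062 (adjusted p = 3.96e-07). PFKL read 85.4, 87.7 and 87.1 CPM against 106, 98.5 and 118 CPM, a rise of 0.31 ± 0.067 (adjusted p = 7.96e-04). The mix of isoforms differed little, and PFKP was 67.4% ± 0.814 of phosphofructokinase counts in the controls and 68.1% ± 0.534 in the libraries labelled PHGDH-overexpressing (SD, n = 3). The difference of 0.764 percentage points overlapped the spread of the libraries (two-sided exact permutation test, p = 0.30, 0.30 adjusted over 2 tests).

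Of the PFKFB enzymes, PFKFB4 read 21.3, 20.5 and 18.4 CPM in the controls and 41.2, 36.4 and 39.95 CPM in the libraries labelled PHGDH-overexpressing, a rise of 0.96 ± 0.083 (adjusted p = 4.12e-09). PFKFB3 read 84.4, 78.6 and 77.1 CPM against 74.8, 73.2 and 72.6 CPM. It was not called (-0.12 ± 0.064, adjusted p = 0.13), though it was called lower with library totals (-0.18, adjusted p = 0.024). PFKFB4 went from 16.0% ± 0.438 to 27.2% ± 1.11 of PFKFB counts and PFKFB3 from 63.9% ± 1.37 to 51.1% ± 1.38 (SD, n = 3). PFKFB2 read 28.2, 24.8 and 22 CPM against 34.5, 30.2 and 29.0 CPM, a rise of 0.31 ± 0.092 (adjusted p = 0.0081) that was lost without control replicate 3 (0.23, adjusted p = 0.068) and without labelled PHGDH-overexpressing replicate 1 (0.24, adjusted p = 0.065).

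Beyond pyruvate the differences were smaller. LDHA read 1743, 1636 and 1775 CPM in the controls and 1827, 1799 and 1821 CPM in the libraries labelled PHGDH-overexpressing, and was not called (0.080 ± 0.055, adjusted p = 0.25). The lactate exporter SLC16A3 (MCT4) rose by 0.24, while SLC16A1, the main transporter of 4T1, had 5 to 11 counts per library. LDHB was called higher by 0.20 (adjusted p = 0.014), but its groups overlapped. That call was lost with library totals (0.14, adjusted p = 0.073), without control replicate 1 (0.16, adjusted p = 0.051), without control replicate 2 (0.18, adjusted p = 0.064) and without labelled PHGDH-overexpressing replicate 2 (0.15, adjusted p = 0.059). PDK1 read 12.2, 11.2 and 12.1 CPM against 13.5, 11.7 and 13.2 CPM and was not called (0.11 ± 0.10, adjusted p = 0.43). Its groups overlapped. PDK2, the most counted PDK in these cells, rose by 0.24 from 28.6 ± 0.436 to 33.7 ± 1.43 CPM (SD, n = 3; adjusted p = 0.012). Its call was lost with library totals (0.18, adjusted p = 0.055) and without labelled PHGDH-overexpressing replicate 1 (0.22, adjusted p = 0.063). PDHA1 was not called (0.080 ± 0.066).

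The 2 scarce PDKs moved apart, each with a call that 1 library could end. PDK3 read 4.94, 5.35 and 5.16 CPM in the controls and 2.94, 4.19 and 3.93 CPM in the libraries labelled PHGDH-overexpressing, a fall of 0.47 ± 0.16 on the log2 scale (adjusted p = 0.021). It was lost without control replicate 2 (-0.45, adjusted p = 0.058), without labelled PHGDH-overexpressing replicate 1 (-0.34, adjusted p = 0.14) and in DESeq2 (-0.47, adjusted p = 0.089). PDK4 read 2.76, 4.25 and 3.61 CPM against 4.34, 6.56 and 4.09 CPM, a rise of 0.52 ± 0.20 (adjusted p = 0.033) between groups that overlapped. It was lost without control replicate 1 (0.36), control replicate 3 (0.54, adjusted p = 0.058) or labelled PHGDH-overexpressing replicate 2 (0.27), with library totals and in DESeq2. FBP1, which reverses the phosphofructokinase step, read 38.8, 38.3 and 44.4 CPM against 25.8, 28.4 and 29.7 CPM. It fell by 0.53 ± 0.082 on the log2 scale (adjusted p = 1.44e-05), with no overlap.

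Of 41 tested genes of the wider pathway, 18 were higher, 9 lower and 14 not called, with a median of 0.14. Over all genes tested, 21.6% were called higher and 22.9% lower. Among the largest rises at 10 CPM or more were the transporter SLC2A6 (1.02), malic enzyme ME1 (0.81) and PGD (0.80), a dehydrogenase of the pentose phosphate pathway. The largest falls were TXNIP, which promotes the removal of glucose transporters from the membrane (-1.02), MPC1 of the mitochondrial pyruvate carrier (-0.50), RPIA (-0.46) and MDH1 (-0.34). Of 22 regulators, 8 were higher, 6 lower and 8 not called. EPAS1 (0.84), which encodes hypoxia-inducible factor 2α, MLX (0.57), HIF1A (0.38) and SIRT6 (0.34) led the rises. PRKAA1 (-0.45), MYC (-0.43), MLXIP (-0.37) and EGLN1 (-0.33) led the falls. Summed epithelial markers were 1122 to 1146 CPM in the controls and 1548 to 1744 CPM in the libraries labelled PHGDH-overexpressing. Of 6 tested, 4 were higher, including KRT8 and KRT18, which made up most of the sum, and 2, EPCAM and CLDN7, were lower. Fibroblast markers summed to 118 to 123 and 160 to 178 CPM. Of 4 tested, 1 was higher, COL6A1 with means of 94.5 and 140.6 CPM, and 3 were not called. The part of these differences in the results was not tested. CDH5, TYROBP, ITGAM and DCN were at 0 in all 6 libraries.

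The 2 replicated experiments share no library, and 24 members were tested in both. Of these, 9 were higher in both (37.5%), namely Hk1, Pfkm, Pfkp, Aldoa, Tpi1, Pgk1, Pgam1, Eno2 and Pkm. Among 9518 genes matched by symbol, 7.96% were higher in both, 8.26% were lower in both and 16.5% were called in opposite directions. Pdk3 was lower in both, and Eno3 was lower in the knockdown and higher in MDA-MB-231 (4.17% of members each). These counts follow the labels of MDA-MB-231, and with its arms exchanged the 9 genes would be called in opposite directions. The treated arm had the lower Phgdh or PHGDH message in each experiment.

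**Figure D4:**
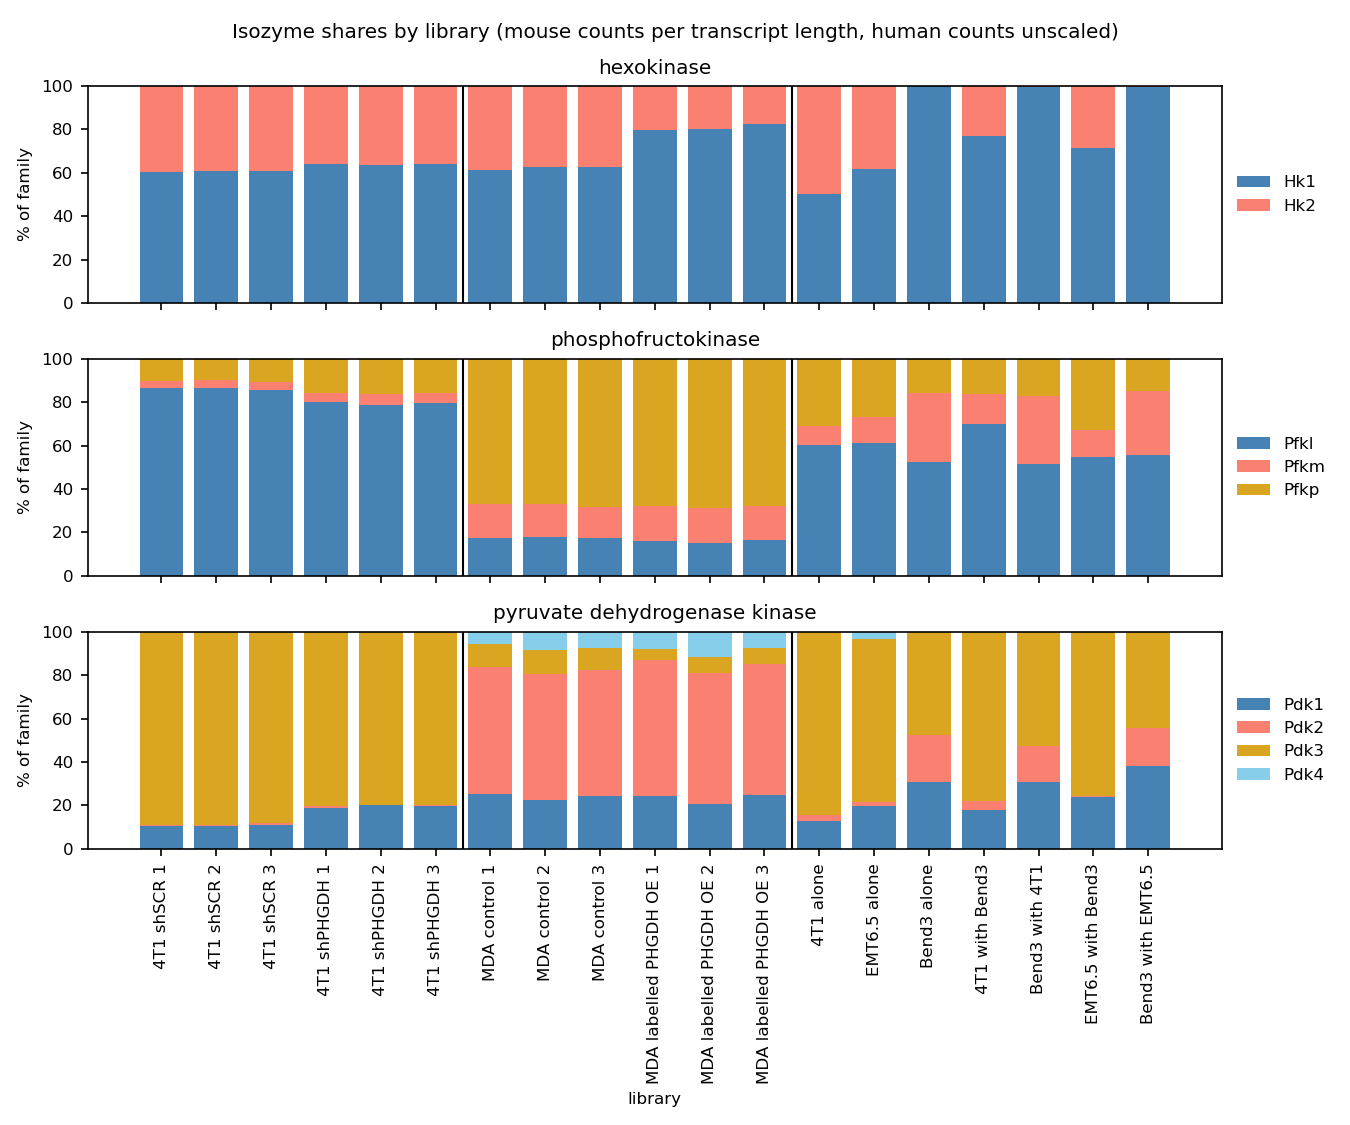
Share of each isozyme in the RNA of its family (percent, y axis) in the 19 libraries (x axis), with lines between the knockdown, MDA-MB-231 and co-culture sets; mouse counts were divided by transcript length and human counts were not. The Hk1 share is larger in the MDA-MB-231 libraries labelled PHGDH-overexpressing, and Bend3 libraries hold almost no Hk2.

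The co-culture set asks how tumour and endothelial cells differ after growth together. With 1 library per condition there is no test, and intervals (95%, exact) cover counting error only. The 3 cell lines carried different isozymes when grown alone. Hk2 had 4 counts in Bend3 (0.884 CPM), against 151 CPM in 4T1 and 173 CPM in EMT6.5. It made up 0.264% of hexokinase counts in Bend3 (exact binomial interval 0.0720% to 0.675%), 56.2% in 4T1 (53.4% to 59.1%) and 44.5% in EMT6.5 (42.8% to 46.3%). Slc16a3 had 1215 counts in EMT6.5 (150 CPM) and 0 in 4T1 and in Bend3, where 3 counts would be 0.669 and 0.663 CPM. Aldoc had 574 counts in EMT6.5, 69 in 4T1 and 0 in Bend3. Fbp1 had 84 counts in Bend3 and 0 in both tumour lines. Eno3 stood at 132 CPM in 4T1, 177 CPM in EMT6.5 and 1.55 CPM in Bend3.

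RNA of the partner remained in sorted libraries at a low level. Partner genes (50 CPM or more in the partner grown alone, 0.5 CPM or less in the host grown alone) reached 1.45% to 1.86% of their partner level after co-culture. The 12 endothelial markers summed to 103 CPM in 4T1 alone and 215 CPM in 4T1 after co-culture, to 120 and 125 CPM in EMT6.5, and to 9867 to 12710 CPM in Bend3. The 8 fibroblast markers summed to 28.1 CPM in 4T1 alone and 177 CPM after co-culture, and to 2872 and 2602 CPM in EMT6.5. In Bend3 they summed to 7.73 CPM alone, 18.2 CPM with 4T1 and 44.7 CPM with EMT6.5. Dcn and Lum were at 0 in each of these libraries. The 12 epithelial markers summed to 512 to 1796 CPM in the tumour libraries and 1.55 to 36.6 CPM in Bend3. Hk2 read 3.31 and 2.73 CPM in Bend3 grown with 4T1 and with EMT6.5, and Eno3 4.41 and 7.995 CPM. The part of partner RNA and of these marker changes in the results was not tested.

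In 4T1 grown with Bend3, 6 members were at least 1.5-fold higher and 4 at least 1.5-fold lower than in 4T1 alone, of 21 with a mean of 5 CPM or more. Of 10137 genes at that level, 46.7% passed the same rule (2248 higher and 2482 lower), so the members' share is near the background. Aldoc, Pfkm, Pfkl and Ldhb had ratios above 2, and Pfkp a ratio near 1. Pfkm went from 8.48 to 23.7 CPM (38 and 105 counts), 2.79-fold higher (1.91 to 4.16). Pfkl went from 74.3 to 160 CPM, 2.16-fold higher (1.89 to 2.46). Pfkp was level at 42.4 and 41.5 CPM, a ratio of 0.979 (0.795 to 1.21). Pfkp thus went from 33.9% (30.0% to 37.9%) to 18.4% (16.1% to 21.0%) of phosphofructokinase counts. Aldoc went from 15.4 to 43.1 CPM, 2.80-fold higher (2.12 to 3.74), and Hk1 from 117 to 189 CPM, 1.61-fold higher (1.44 to 1.80). Slc16a1 went from 173 to 266 CPM, 1.53-fold higher (1.40 to 1.68), and Ldhb from 4.69 to 9.70 CPM, 2.07-fold higher (1.20 to 3.67, from 21 and 43 counts).

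The lower members in 4T1 included Pfkfb3, which went from 52 to 8 counts (11.6 to 1.80 CPM), 6.43-fold lower (3.03 to 15.7). Hk2 went from 151 to 73.1 CPM, 2.06-fold lower (1.81 to 2.36), and its share of hexokinase counts from 56.2% to 27.9% (25.3% to 30.6%). Eno3 went from 132 to 69.7 CPM, 1.90-fold lower (1.65 to 2.18), and Ldha from 322 to 201 CPM, 1.60-fold lower (1.47 to 1.74). Slc2a1 lay just under the limit, at 54.0 and 80.7 CPM (1.496-fold, 1.27 to 1.77). Phgdh read 14.5 CPM in 4T1 alone and 4.74 CPM after co-culture (65 and 21 counts). In the knockdown set, Phgdh read 163.4 to 172.5 CPM in shSCR libraries, so its levels are not compared between the 2 sets.

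**Figure D5:**
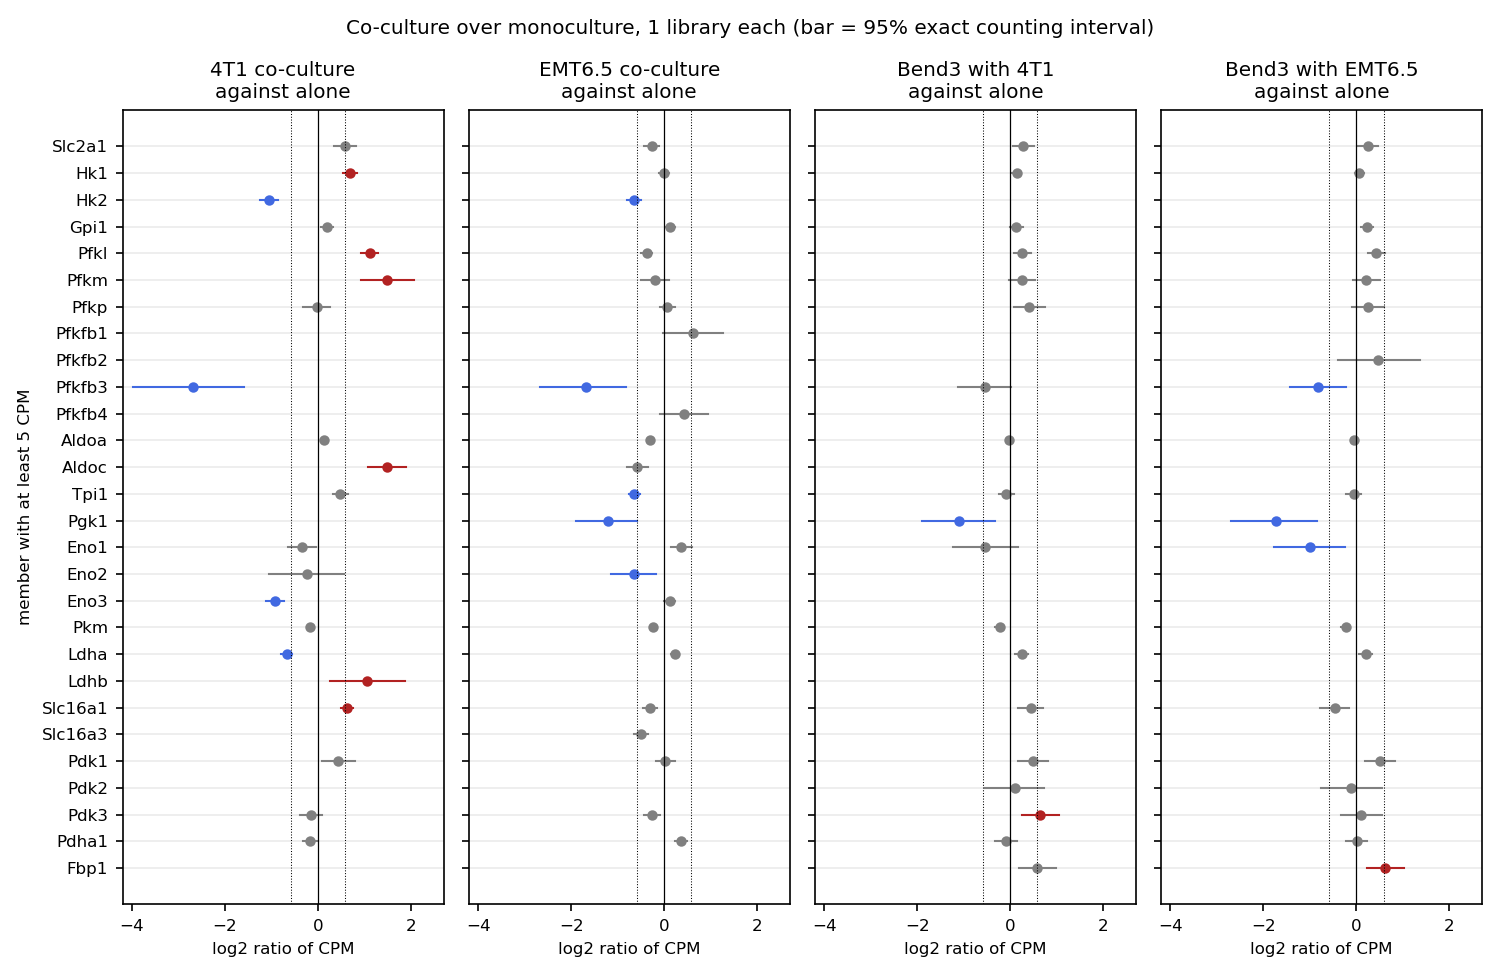
Log2 ratio of CPM, co-culture over the same line alone, for members with a mean of at least 5 CPM; bars are 95% exact counting intervals and dotted lines mark 1.5-fold. Red and blue points are at least 1.5-fold higher and lower; Pfkfb3 and Hk2 lie to the left in both tumour lines and Pgk1 to the left in both Bend3 panels, which share 1 monoculture library.

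In EMT6.5 grown with Bend3, 0 of 24 members at 5 CPM or more were at least 1.5-fold higher and 5 were lower. Of 10212 genes, 29.9% passed the rule (1334 higher and 1723 lower). Pfkfb3 went from 69 to 13 counts (8.52 to 2.66 CPM), 3.21-fold lower (1.76 to 6.32), while Pfkfb4 stood at 9.14 and 12.3 CPM, a ratio of 1.34 (0.939 to 1.91). Pfkfb3 therefore went from 30.8% (24.8% to 37.3%) to 10.9% (5.95% to 18.0%) of PFKFB counts. In 4T1 the same share went from 73.2% (61.4% to 83.1%) to 16.3% (7.32% to 29.7%). Hk2 went from 173 to 111 CPM, 1.57-fold lower (1.42 to 1.74). Tpi1 went from 259 to 166 CPM, 1.56-fold lower (1.44 to 1.69), and Eno2 from 16.3 to 10.4 CPM, 1.56-fold lower (1.12 to 2.21). Pgk1 went from 12.4 to 5.31 CPM, 2.32-fold lower (1.497 to 3.73), on reads that its copies can share.

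Several members past the limit in 4T1 had ratios near 1, or on the other side of it, in EMT6.5, though no test of that difference was possible with single libraries. Pfkl went from 223 to 172 CPM, a ratio of 0.773 (0.712 to 0.840), and Hk1 stood at 216 CPM in both libraries. Ldha went from 267 to 314 CPM, a ratio of 1.18 (1.101 to 1.26). Pdk4, named after its values were seen because its mean was under 5 CPM, had 61 counts in EMT6.5 alone and 0 after co-culture. Against 3 counts in the co-culture library, that is at least 12.3-fold lower. Phgdh read 6.17 CPM in EMT6.5 alone and 2.04 CPM after co-culture (50 and 10 counts).

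Bend3 cells changed less, in 2 comparisons that share the single Bend3 monoculture. With 4T1, 1 of 19 members was at least 1.5-fold higher and 1 was lower, where 16.1% of 10050 genes passed (965 higher and 652 lower). Pdk3 went from 17.9 to 27.9 CPM, 1.56-fold higher (1.18 to 2.07), and Pgk1 from 41 to 23 counts, 2.14-fold lower (1.26 to 3.74). With EMT6.5, 1 of 20 members was higher and 3 were lower, where 15.8% of 10040 genes passed (862 higher and 723 lower). Fbp1 went from 18.6 to 28.5 CPM, 1.54-fold higher (1.17 to 2.03), and with 4T1 it read 27.7 CPM. Pfkfb3 went from 61 to 42 counts, 1.77-fold lower (1.17 to 2.68), and had 50 counts with 4T1. Pgk1 went from 41 to 15 counts, 3.32-fold lower (1.80 to 6.47), and Eno1 from 41 to 25 counts, 1.99-fold lower (1.18 to 3.42). Both of the last share reads with copies. In Bend3 the phosphofructokinase shares had overlapping intervals, and Pfkm made up 26.3% (23.1% to 29.8%) of phosphofructokinase counts alone, 25.7% (23.0% to 28.5%) with 4T1 and 24.1% (21.5% to 26.8%) with EMT6.5.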

How the data were processed

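RNA was sequenced as single-end reads of a stranded mRNA kit, per the labels' protocols. All tables hold raw counts per gene as deposited by the authors. The submitters' processing notes name trimming in Trim Galore 0.5.0, alignment with HISAT2 2.1.0 on GRCm38, which is a mouse build, and counting with HTSeq. The human build, annotation and counting settings are not given in the sources used here, and which counter made the knockdown table is not certain. That table has 10 further library columns, which were not used. Entries that name no gene were left out of library sizes. The MDA-MB-231 columns named SCR were read as the controls.

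Each replicated experiment was fitted over its whole table with edgeR 4.0.16 in R 4.3.3 (TMM scaling, default filter on low counts, quasi-likelihood F-test). A gene was called at an adjusted p under 0.05 (Benjamini-Hochberg, over all genes tested). Isozyme shares were computed per transcript length (longest coding transcript, GENCODE vM21) in the knockdown and from plain counts in MDA-MB-231. Co-culture shares in the text are of plain counts, with exact binomial intervals. The plot of isozyme shares by library divides all mouse counts by transcript length. Only the Pfkp share was compared by exact permutation, in the knockdown and in MDA-MB-231. Shifts in the other shares were not tested. Co-culture ratios are of TMM-scaled CPM with 95% exact counting intervals. A gene was counted with a mean of at least 5 CPM, a ratio of at least 1.5-fold and an interval that excludes 1. Without molecular identifiers, the intervals and floors allow for counting error alone.

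Members and lists were chosen with earlier results of these data known. Members are given in full when called with a log2 fold change of at least 0.3 in either replicated experiment, with Slc2a1, Hk2, Pfkl, Pfkm, Pfkp, Pfkfb3, Pkm, Ldha and Pdk1 in every case. Of the wider pathway and the regulators, the 4 largest called rises and falls at 10 CPM or more are named, except 1 gene that is not reported here. Alternatives were DESeq2 1.42.0, library totals, no filter, a replicate block, lane as a term (knockdown), leaving out each library, other limits in co-culture and, chosen after seeing the data, the chromosome, neighbour and copy adjustments. The fits were tested on simulated counts.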

Additional observations from a re-analysis of the deposited data

How the results depend on the processing

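The knockdown called 17 members under DESeq2, library totals, no filter, lane in the model and the replicate block, and 16 to 18 when a library was left out. Of all genes tested, 59.7% were called as reported, 40.4% under DESeq2, 60.9% with library totals, 42.4% with no filter, 50.1% with lane and 56.9% with the block. With a library left out, 54.1% to 56.7% of all genes were called. MDA-MB-231 called 25 with no filter and with the replicate block, 23 under DESeq2, 22 with library totals and 22 to 24 without a library. There, all genes gave 44.5% as reported, 25.0% with no filter, 43.9% with the block, 31.3% under DESeq2, 45.0% with library totals and 36.6% to 45.1% without a library. Replicate numbers did not pair the libraries (correlations of same-numbered deviations from -0.055 to 0.038), so the block is given only here. Lane is mostly confounded with the arm of the knockdown. Of 286 values of single members in the knockdown, 10 changed sign, all of members that were not called. Gpi1 was -0.027 with library totals, Pfkl 0.016 with lane in the model and Aldoc -0.093 with lane in the model. Pfkfb4, at -0.0023, was 0.0078 under DESeq2, 0.0050 with no filter, 0.00065 with the replicate block, 0.19 with lane in the model and -0.11 to 0.13 without a library. In MDA-MB-231, 0 of 300 values changed sign. The difference in Pfkp share was 5.37 to 5.93 points in the knockdown and 0.439 to 1.22 points in MDA-MB-231 without a library.

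With a limit of 2-fold, the members past it were 6 in 4T1, 2 in EMT6.5, 1 in Bend3 with 4T1 and 1 in Bend3 with EMT6.5, in place of 10, 5, 2 and 4. With a floor of 1 CPM in place of 5 CPM they were 8 in EMT6.5 and 5 in Bend3 with 4T1. At that floor Pfkfb1, Pfkfb4 and Pgk1 also passed in 4T1, and Gapdh and Eno3 in Bend3 with EMT6.5. The share of all genes past these other limits is not given here, so these counts have no background beside them. Depth limits the co-culture set most, where Pfkfb3, Pgk1 and Ldhb rest on at most 100 counts per library.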

Other observations

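Some neighbours of the pathway that the text has not yet given were chosen after their values were seen. TXNIP differed in direction between the replicated experiments as labelled. Whether the MDA-MB-231 arms are exchanged was not tested, and if they were, TXNIP would share a direction and EGLN3 would not. Txnip read 3.69, 5.29 and 5.58 CPM in shSCR and 8.15, 8.27 and 8.36 CPM in shPHGDH libraries of 4T1, a rise of 0.75 ± 0.13 (log2 fold change ± SE, adjusted p = 1.34e-05). TXNIP read 180, 156 and 179 CPM in MDA-MB-231 controls and 86.7, 79.7 and 88.2 CPM in the libraries labelled PHGDH-overexpressing, a fall of 1.02 ± 0.067 on the log2 scale (adjusted p = 4.82e-11). EGLN3 was higher in the treated arm of both, by 1.21 in 4T1 and by 1.09 ± 0.13 in MDA-MB-231 (4.15 to 8.84 CPM, adjusted p = 7.06e-07).

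In MDA-MB-231, several genes of the pentose phosphate pathway rose beside glycolysis. TKT went from 421 ± 7.74 to 685 ± 42.5 CPM (SD, n = 3; log2 fold change 0.70) and TALDO1, the transaldolase, from 231 ± 12.1 to 368 ± 13.4 CPM (0.67), as well as PGD, while RPIA, ribose-5-phosphate isomerase, fell. HKDC1, a hexokinase domain protein, read 1.94, 2.05 and 1.95 CPM in the controls and 11.2, 9.93 and 10.1 CPM in the libraries labelled PHGDH-overexpressing, a rise of 2.39 ± 0.15 (adjusted p = 1.35e-11). Of the other enzymes of serine synthesis in 4T1, Psat1 rose by 0.39 (358 ± 10.8 to 469 ± 8.56 CPM) and Psph by 0.23 (45.2 ± 0.128 to 53.3 ± 1.96 CPM; SD, n = 3).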
